A study of Mus musculus with 3 samples.

Results

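The T cell receptor beta locus genes are the 53 genes, of 55536 gene identifiers in the deposited tables, whose symbols start with Trbv, Trbd, Trbj or Trbc. They comprise 35 variable genes (Trbv), 2 diversity segments (Trbd), 14 joining segments (Trbj) and 2 constant genes (Trbc). Of the Trbv genes, GENCODE M21 annotates 22 as functional and 13 as pseudogenes. The genes lie on chromosome 6 of the mouse assembly GRCm38 (mm10), between positions 40891229 and 41558452, a span of 667 kb. All lie on the plus strand except Trbv31, which lies on the minus strand, 9.34 kb past the end of Trbc2.

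RNA with polyA tails was sequenced from naive CD4 αβ T cells; the donor was 1 male mouse, 5 months old. The labels call the cells thymus-derived and give the strain as B6.SJL-Ptprca Pepcb/BoyJ, a C57BL/6 line that carries the SJL alleles of Ptprc (the CD45.1 allele) and Pepc. The organ the cells were collected from and the way they were sorted are not stated there, and no treatment or transgene is named. There was 1 group, with 3 technical libraries of 1 biological replicate, so each SD measures how far technical libraries differ (n = 3) and no condition or animal was compared. The p-values below ask whether technical libraries differ by more than counting error. They depend on the number of counts as well as on the spread, so a low p-value is no measure of how much a gene varied.

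A developing T cell assembles its receptor beta chain by joining a D to a J segment and then a V gene to that product, with bases trimmed and added at each joint. The rearranged V, D and J stretch is spliced to the exons of Trbc1 or Trbc2 in 1 mRNA. Each naive T cell thus largely transcribes the V gene it has rearranged, and a population of many clones holds RNA of many V genes. More cells that use a V gene and more RNA per cell cannot be told apart in a bulk sample.

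The labelled cell type was checked against its markers. All 6 T cell markers and all 3 markers of the CD4 lineage were detected, that is, had a TPM (the deposited length-scaled transcript level) of at least 1 in every library. Summed TPM in libraries 1, 2 and 3 were 4678, 4354 and 4871 for the T cell list and 671, 670 and 689 for the CD4 list. Of the markers of other cells, 1 of 2 for CD8 T cells was detected (summed TPM 16.9 to 17.4). It was Cd8b1, at 17.0 ± 0.24 TPM, while Cd8a stood at 0.14 ± 0.046 TPM. For γδ T cells 2 of 5 were detected (5.46 to 5.90), Trdc and Tcrg-C1. For NK and NKT cells 1 of 4 was detected (10.6 to 15.7), Klrd1. For B cells it was 1 of 6 (3.72 to 4.16), Cd79a, and for myeloid cells 1 of 5 (2.39 to 3.44), Itgam. For double-positive thymocytes it was 1 of 5 (7.10 to 8.71), Dntt. CD8 T cells and NKT cells also rearrange this locus; their part in the levels below was not tested.

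The length of a J or D segment decided whether it could be counted, and the sequences show those lengths. The files' effective length, the number of start positions from which a read can be counted, was length minus 49, so a segment shorter than 50 bases has none. Below are the 6 J segments that received counts, 3 that could not, and both D segments, in the germline form of the GENCODE M21 transcripts (5′ to 3′; capitals mark TTNGG followed by 4 bases of any kind and GG, a nucleotide pattern of the phenylalanine and glycine motif of J segments, searched on the strand shown).
Trbj1-3: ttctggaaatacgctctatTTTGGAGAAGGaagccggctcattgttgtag
Trbj1-4: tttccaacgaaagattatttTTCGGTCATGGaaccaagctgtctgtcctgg
Trbj1-5: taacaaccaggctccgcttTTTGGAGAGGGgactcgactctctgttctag
Trbj1-6: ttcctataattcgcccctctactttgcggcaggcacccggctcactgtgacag
Trbj2-1: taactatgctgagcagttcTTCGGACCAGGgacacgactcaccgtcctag
Trbj2-2: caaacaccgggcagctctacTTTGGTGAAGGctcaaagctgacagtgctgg
Trbj1-7: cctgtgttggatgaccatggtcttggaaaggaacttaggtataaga
Trbj2-6: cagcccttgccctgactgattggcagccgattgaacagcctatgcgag
Trbj2-7: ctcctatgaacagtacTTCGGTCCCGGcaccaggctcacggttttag
Trbd1: gggacagggggc
Trbd2: gggactgggggggc
The pattern occurred in 11 of 14 J segments and in the first 50 bases of 1.22% of 141672 annotated transcripts. It was not found in Trbj1-6, Trbj1-7 or Trbj2-6, the last of which is annotated as a pseudogene. Trbj1-3 has 2 annotated transcripts, of 50 and 54 bases; the shorter is shown.

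Only J segments of 50 bases or more received expected counts, which are the deposited, fractional estimates of reads per gene. Expected counts of Trbj1-3 were 10, 10 and 14 in libraries 1, 2 and 3, and those of Trbj1-6 were 5, 10 and 16. Trbj1-4 had 5 in each library and Trbj1-5 had 1, 0 and 2. Trbj2-1 had 1, 3 and 2, and Trbj2-2 had 3, 4 and 11. These 6 segments are the ones with an effective length above 0, which ran from 1 to 4 positions. The other 8 Trbj and both Trbd, all with an effective length of 0, stood at 0 in every library, as the length rule fixes.

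On the TPM scale the same few reads became large. One count on an effective length of 1 was worth 116, 89.7 and 98.0 TPM in libraries 1, 2 and 3. Trbj1-3 thus stood at 416, 322 and 387 TPM and Trbj1-4 at 291, 224 and 245 TPM. Trbj1-6 stood at 146, 224 and 392 TPM and Trbj2-2 at 175, 179 and 539 TPM, both highest in library 3. Trbj1-5 stood at 116, 0 and 196 TPM and Trbj2-1 at 116, 269 and 196 TPM. Their summed level was 1261, 1219 and 1955 TPM (1478 ± 414), from 25, 32 and 50 counts. Those 107 counts in all made up 21% ± 4.1 of the summed TPM of the locus and 0.118% ± 0.035 of its expected counts. All 16 Trbd and Trbj entries have an effective length under 20 and their TPM are not read here as levels.

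**Figure D1:**
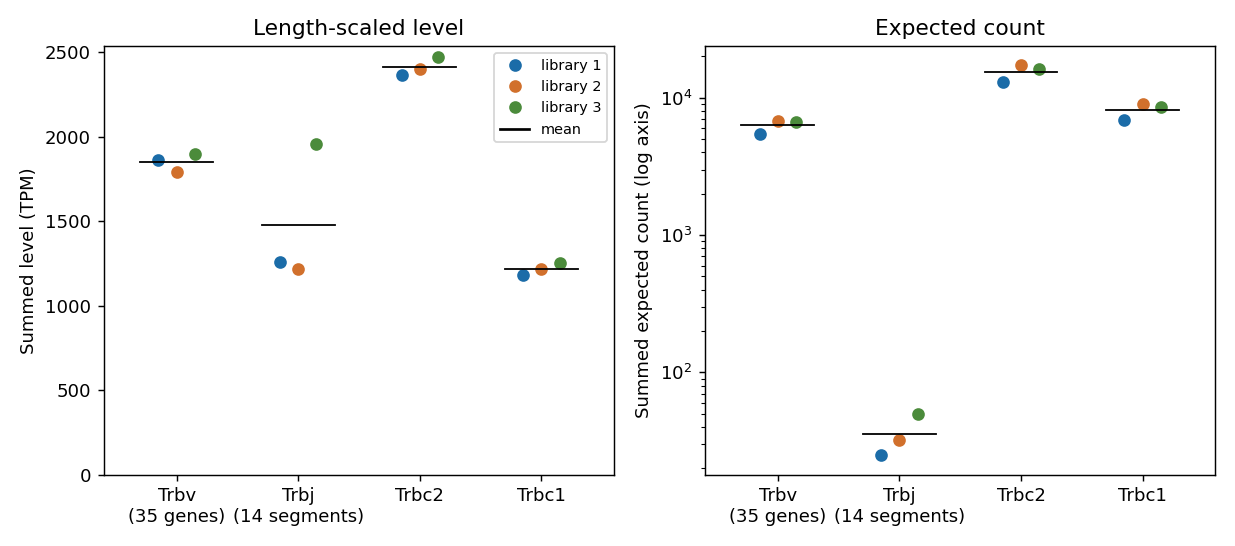
Summed TPM (left, linear axis from 0) and summed expected counts (right, log axis) of the 35 Trbv genes, the 14 Trbj segments, Trbc2 and Trbc1, with 1 point per technical library and a line at the mean. The Trbj segments reach 1219 to 1955 TPM from 25 to 50 counts, while Trbc2 stands highest in both panels.

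A further table of whole-number counts on the older GENCODE M4 annotation held 15 of the 16 D and J segments (Trbj2-6 had no matching identifier), and all 15 had counts in every library. The annotated transcripts of the 7 Trbj1 segments have 45 to 54 bases, and the older counts of these segments summed to 758, 788 and 869 in libraries 1, 2 and 3. The Trbj2 segments summed to 427, 490 and 484. The ratio of the Trbj1 to the Trbj2 cluster was 1.73 ± 0.10, and the Trbj1 sum was the higher one in all 3 libraries. The ratio is not per segment: the Trbj1 sum includes Trbj1-7 (102, 98 and 119 counts), while the Trbj2 sum lacks Trbj2-6. Each cluster is followed by its own constant gene, Trbj1 by Trbc1 and Trbj2 by Trbc2. Among the same older counts Trbc2 had 604, 645 and 623 and Trbc1 had 538, 546 and 546. The constant genes thus stood in the opposite order to their J clusters. These counts were only 4.02% of the expected count for Trbc2 and 6.64% for Trbc1, and the 2 genes share long stretches of sequence. What their order says about use of the 2 clusters was not tested.

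Within the older counts, Trbj1-4 had 122, 124 and 140 counts and Trbj2-7 had 93, 105 and 107. The Trbj1 segments ran from 84 for Trbj1-1 to 140 for Trbj1-4, and the Trbj2 segments from 50 for Trbj2-2 to 107 for Trbj2-7. Trbj1-7, which lacks the pattern above, had 102, 98 and 119 counts. It starts 35 bases after the end of Trbj1-6, which had 107, 105 and 136, so a read of 50 bases can touch both. Trbd1 had 33, 40 and 35 counts and Trbd2 had 27, 17 and 25. Trbd1 has 12 bases and Trbd2 has 14, so a read of 50 bases cannot lie wholly inside either. The overlap rule behind the older counts is not given in the sources used here.

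**Figure D2:**
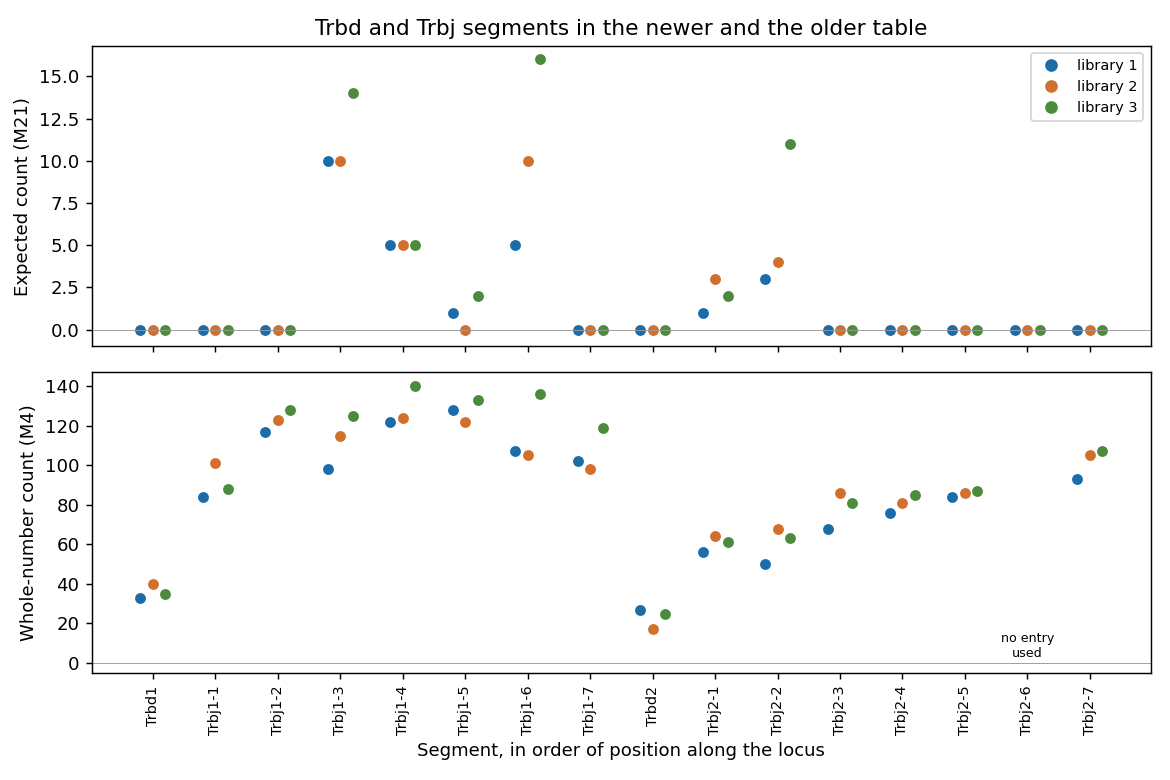
Expected counts on M21 (top) and whole-number counts on M4 (bottom) of the 16 Trbd and Trbj segments in order along the locus, 1 point per technical library. The top panel is above 0 at 6 segments, while the bottom panel is above 0 at all 15 segments it shows; Trbj2-6 has no entry there.

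Trbv genes encode the variable domain with its germline-encoded binding loops. Of the 35, 23 were detected: all 22 annotated as functional and 1 of the 13 pseudogenes, Trbv24. Of all genes, 21.4% were detected. Trbv genes together stood at 1861, 1794 and 1897 TPM in libraries 1, 2 and 3 (1851 ± 52), or 0.185% ± 0.0052 of all TPM. The median over the functional Trbv genes was 74.9 TPM, with an 81-fold span from the lowest to the highest.

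Trbv13-2, known as Tcrb-V8.2 in the older naming, stood highest at 228, 236 and 231 TPM (chromosome 6, 41121396 to 41121832). It held 12.5% of the Trbv total. Its lowest library lay above the highest library of every other Trbv gene, and its ratio to the next gene was 1.46 ± 0.081. That next gene was Trbv31 (41557691 to 41558452), the inverted gene on the far side of the constant regions, at 157, 152 and 166 TPM, and its 3 values lay above those of every lower-ranked Trbv gene.

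The next 6 genes fell into 2 sets of 3 with overlapping values. Trbv16 stood at 141, 125 and 147 TPM, Trbv3 at 133, 129 and 151 TPM, and Trbv13-3 at 145, 126 and 138 TPM. Below them, Trbv13-1 stood at 120, 119 and 117 TPM, Trbv1, the gene farthest from the constant regions, at 122, 116 and 117 TPM, and Trbv19 at 119, 110 and 123 TPM. Within each set the order was not resolved at this spread. Trbv20 at 84.7, 85.3 and 99.7 TPM and Trbv5 at 90.8, 86.4 and 87.6 TPM completed the 10 highest.

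The other functional genes ran from 75.5 TPM for Trbv4 down to 2.87 TPM for Trbv21. Between neighbours in the order of the 23 detected genes, 11 of 22 pairs had overlapping ranges over the libraries. Trbv4, Trbv2 and Trbv12-2 formed 1 such run, at 73.5 to 75.5 TPM, and Trbv12-1, Trbv14 and Trbv29 another, at 28.8 to 31.6 TPM. The 5 highest genes held 43.3% ± 0.6 of the Trbv total. By expected counts, without length, Trbv19 was second, since its annotated transcript has 566 bases where the median functional gene has 368.

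**Figure D3:**
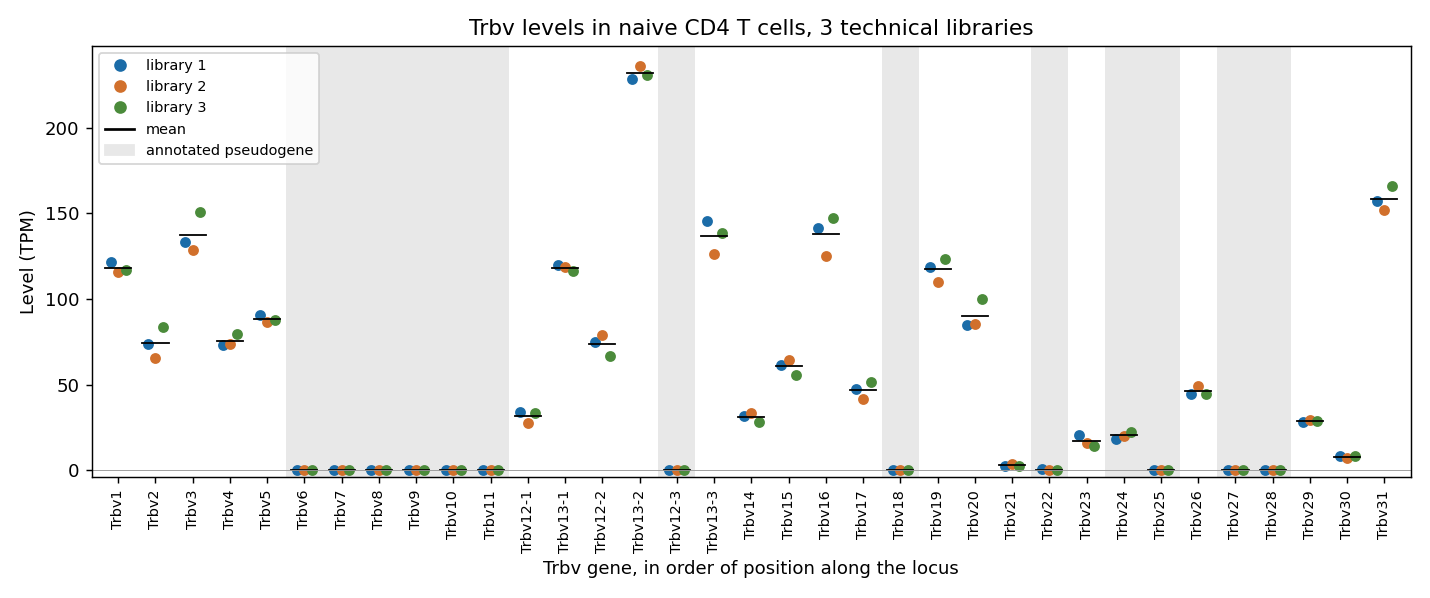
TPM of the 35 Trbv genes in order of position along the locus, with 1 point per technical library, a line at the mean and grey bands behind annotated pseudogenes. Trbv13-2 stands highest at 228 to 236 TPM, and of the banded genes only Trbv24 stands clear of 0.

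The 3 genes just above the limit of 1 TPM were all functional and lay toward the D segments. Trbv23 stood at 20.7, 15.7 and 14.1 TPM, and Trbv30 at 8.55, 6.97 and 8.22 TPM. Trbv21 stood at 2.44, 3.72 and 2.44 TPM from 6, 10 and 6 expected counts. The 3 just below were pseudogenes with a handful of counts: Trbv22 at 0.48, 0 and 0.40 TPM, and Trbv6 and Trbv25 each at 0, 0.40 and 0 TPM.

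The 3 functional genes of lowest level (Trbv21, Trbv30 and Trbv23) all lay between Trbv20 and Trbd1. Trbv29, next at 28.8 TPM, also lay there. Its range over the libraries overlapped that of Trbv14 (31.1 TPM), which lies farther from Trbd1 than Trbv20. Across the 21 functional Trbv genes upstream of Trbd1, from Trbv30 at 251 kb to Trbv1 at 641 kb, level and distance to Trbd1 had a Spearman rho of 0.54, and level and effective length a rho of 0.24 across all 22. These describe genes of the same 3 libraries, which are no independent replicates, and gene families sit next to each other in the locus.

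Families of near neighbours were uneven. The 3 functional Trbv13 genes held 26.3% ± 0.6 of the Trbv total, with Trbv13-2 at 1.96 ± 0.043 times the TPM of Trbv13-1. Trbv12-2 stood at 74.9, 79.0 and 66.5 TPM and Trbv12-1 at 33.9, 27.7 and 33.1 TPM, a ratio of 2.36 ± 0.44. Of exact stretches of 50 bases, Trbv13-2 and Trbv13-3 share 1, and Trbv12-2 and the pseudogene Trbv12-3 share 4, so few reads match both members of such a pair. Of the 43 members with at least 1 such stretch, 34 share none with another annotated transcript.

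The largest sharing among Trbv genes was with noncoding transcripts. Trbv4 shares 248 of 344 stretches, and Trbv5 247 of 319, with the overlapping long noncoding RNA 5830405F06Rik, which was given 2.34 ± 0.61 TPM. All stretches of the pseudogene Trbv8, which had 0 counts, lie in AC153851.1. The levels of Trbv4 and Trbv5 therefore depend on how the authors' tool divided shared reads. It gave 18.7, 25.2 and 15.8 counts to 5830405F06Rik in libraries 1, 2 and 3, against 217, 282 and 280 to Trbv4 and 249, 307 and 285 to Trbv5. The deposited posterior SD of the expected count was 0.86 to 1.34 counts for Trbv4 and 3.03 to 4.10 for Trbv5.

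SJL mice, the source of the congenic interval, are known to lack Trbv12-1, Trbv12-2, Trbv13-1, Trbv13-2, Trbv13-3, Trbv14, Trbv15, Trbv16 and Trbv17 through a deletion in their beta locus. The strain name gives SJL alleles of Ptprc and Pepc only and names no gene of the beta locus. All 9 of these genes were detected here. They stood at 885, 852 and 868 TPM together and held 46.9% ± 1.0 of the Trbv total.

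Pseudogenes held 1.13% ± 0.10 of the Trbv total, nearly all of it from Trbv24 (41218091 to 41218557). Trbv24 had 47, 67 and 68 expected counts and stood at 18.4, 20.2 and 22.4 TPM, all within or above the range of the functional gene Trbv23. The other 12 pseudogenes had 4 counts in all, and 9 of them had 0 in every library, which at their lengths allows up to 0.762 to 1.66 TPM in a library. Trbv24 is a V segment in RefSeq, and Trbv29, functional in GENCODE, is a pseudogene in RefSeq; the other 51 biotypes were of the same kind in both.

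The end of the annotated Trbv24 transcript holds a stop codon. Its sequence is given beside that of Trbv26, the next functional gene in position, over 44 bases with 5 mismatches (capitals mark the same codon in both).
Trbv24: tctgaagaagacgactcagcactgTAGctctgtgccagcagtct
Trbv26: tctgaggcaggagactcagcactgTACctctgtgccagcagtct
In Trbv24 the reading frame from its first ATG meets the stop codon TAG at base 325 of the annotated transcript, with 20 bases after it. Trbv26 reads TAC there. Trbv26 stood at 44.7, 49.1 and 44.2 TPM, and Trbv24 had 0.442 ± 0.055 of that level. The strain carries C57BL/6 sequence outside the congenic interval, and no reads were at hand to read this codon in the mouse itself.

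A frame of at least 250 bases, open from an ATG to the annotated end, was found in 21 of 22 functional Trbv genes and in 0 of 13 pseudogenes. The exception was Trbv4, whose frame meets TAA with 2 bases after it, at the end where joining trims bases. The letters TGTGCNAGC, which cover the conserved cysteine codon at the end of many V genes, were searched on the plus strand of the transcript in its last 45 bases. They occurred in 17 of 22 functional genes and 4 of 13 pseudogenes, against 0.0769% of 141693 annotated transcripts. Trbv13-2, Trbv31, Trbv16 and Trbv1, all among the 10 highest, are shown, since they differ there (capitals mark TGTGCNAGC).
Trbv13-2: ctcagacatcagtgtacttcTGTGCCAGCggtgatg
Trbv31: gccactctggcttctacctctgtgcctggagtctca
Trbv16: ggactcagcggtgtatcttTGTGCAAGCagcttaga
Trbv1: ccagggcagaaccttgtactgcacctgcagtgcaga
Trbv31 and Trbv1 lack these letters and stood at 159 ± 7 and 118 ± 3 TPM, so genes with and without them are both among the 10 highest. The sequence shown for Trbv31 is the end of its transcript Trbv31-201.

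Trbc1 and Trbc2 encode the constant domain, the connecting stretch and the membrane anchor that pairs with the CD3 chains. Trbc2 (41546730 to 41548352) stood at 2368, 2402 and 2474 TPM and Trbc1 (41538218 to 41539881) at 1180, 1217 and 1254 TPM. All values of Trbc2 lay above all values of Trbc1, and their ratio of 1.98 ± 0.020 varied little between libraries. By level, Trbc2 ranked at 32 and Trbc1 at 100 among all genes. The pair held 78.8% ± 0.4 of the expected counts of the locus.

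The coding sequences of Trbc1 and Trbc2 have 518 bases each and differ at 23, or 95.6% identity. Exon 1, which encodes the constant domain, differs at 1 of 375 bases and exon 3 at 15 of 107. The 100 bases from coding base 361 to 460, in exons 1 to 3, show where the genes part (capitals mark the 11 mismatches).
Trbc2: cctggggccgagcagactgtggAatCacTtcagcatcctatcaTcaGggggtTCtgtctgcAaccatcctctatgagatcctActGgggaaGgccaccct
Trbc1: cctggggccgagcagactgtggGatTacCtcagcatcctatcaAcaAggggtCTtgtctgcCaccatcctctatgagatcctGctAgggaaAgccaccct
Of stretches of 50 bases, 283 are common to both genes, 44.0% of the 643 in the Trbc2 transcript and 41.1% of the 688 in the main Trbc1 transcript. Reads from them had to be divided by estimation. The deposited posterior SD of the expected count was 0.467% for Trbc2 and 0.886% for Trbc1, both below the spread between libraries of 2.23% and 3.06% in TPM.

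Isoform percent, the deposited share of TPM that each transcript takes within its gene, was steady for some members and not for others. The transcript Trbc1-202 took 96.5%, 89.7% and 93.9% of Trbc1 TPM in libraries 1, 2 and 3. Trbv31-201 took 88.3%, 82.9% and 77.9%. Of the 2 transcripts of Trbv26, of 344 and 367 bases, Trbv26-201 took 79.8%, 56.0% and 14.6%, while the gene itself varied by 5.83% (coefficient of variation). Trbv30 was given wholly to Trbv30-202 in libraries 1 and 3 and wholly to Trbv30-201 in library 2. For those 2 genes the gene level, not the transcript level, is read here.

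The genes of the locus together held 0.667%, 0.663% and 0.758% of all TPM and 0.172%, 0.182% and 0.181% of the expected counts given to genes. Without the 16 short D and J entries the share of TPM was 0.548% ± 0.012. Per length, summed Trbv TPM was 0.510 ± 0.014 of summed Trbc TPM. That the ratio is below 1 does not hold on the older counts, where Trbv exceeded Trbc. The older counts are an unlike measure, since they have no length correction. They also came to a mean of 4.99% of the expected counts for Trbc and 74.4% for the Trbv genes with an older count.

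The older counts were a far smaller part of the expected counts for Trbc than for Trbv. Expected counts were 13074, 17218 and 16231 for Trbc2 and 6888, 9018 and 8630 for Trbc1. The older count was 4.02% of the expected count for Trbc2 and 6.64% for Trbc1. The 169 other genes with expected counts in the range of those of Trbc had a median of 21.2%, with a middle range of 10.6% to 33.1%, above both.

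For the 21 Trbv genes with an older count the percent ran from 60.2% for Trbv13-2 to 112% for Trbv30, with a median of 85.6%. The median was 55.5% over 6148 other genes in the same range of expected counts, with a middle range of 37.2% to 71.9%. Those genes share only the limits of the range, 22 to 2022 expected counts, and were not matched in count within it. Trbc2 and Trbc1 had nearly equal older counts, with a log2 ratio of 0.20 where TPM gave 0.99. How the older counts treat reads that match several places is not given in the sources used here, and the cause of these differences was not tested.

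**Figure D4:**
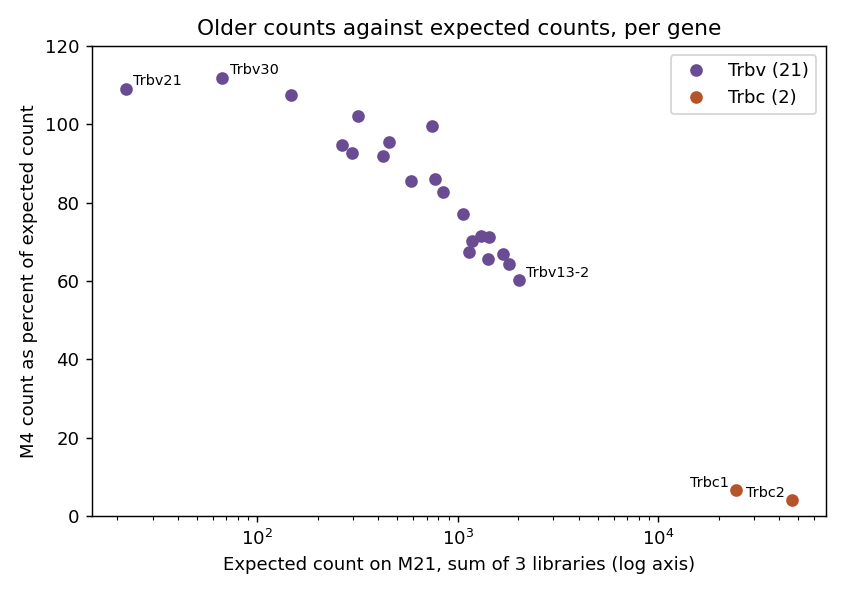
Whole-number M4 count as a percent of the M21 expected count (linear axis from 0) against the expected count summed over the 3 libraries (log axis), 1 point per gene for 21 Trbv and 2 Trbc genes; the quantity on the horizontal axis is also the denominator of the percent. The Trbv genes lie between 112% for Trbv30 and 60.2% for Trbv13-2, Trbc2 stands at 4.02% and Trbc1 at 6.64%.

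For each gene, a chi-square test asked whether its TMM-scaled expected counts differed between the technical libraries, with Benjamini-Hochberg adjustment over 13090 genes; the test compares these libraries, not conditions. Of 26 members with a mean of at least 10 counts, 3 differed at an adjusted p under 0.05, where 40.0% of all tested genes did. Trbc2 differed with a chi-square adjusted p of 1.0e-14 and a ratio of highest to lowest scaled count of 1.10, and Trbc1 with 6.2e-07 and 1.09. The scaled counts of both were highest in library 2, while their TPM were highest in library 3. Trbv12-2, with expected counts of 216, 296 and 228, had a chi-square adjusted p of 0.045 and a ratio of 1.28, highest in library 2. The call of Trbv12-2 was lost without library 2 or without library 3 (chi-square adjusted p of 0.51 and 0.28), and that of Trbc1 without library 1 (0.11), while Trbc2 kept its call in each case. Over all alternatives tried, the chi-square adjusted p ran from 0.016 to 0.51 for Trbv12-2 and from 3.2e-07 to 0.11 for Trbc1. The median ratio of highest to lowest scaled count was 1.14 over the members and 1.20 over all tested genes. For the functional Trbv genes the coefficient of variation of TPM had a median of 7.86%, and counting error in the expected counts alone gives 6.22%. The TPM figure also holds differences in scaling between libraries, which the counting figure leaves out. Their gap is therefore no measure of spread beyond counting error. On TMM-scaled counts, Trbv16 varied by 8.43% in TPM yet had an unadjusted chi-square p of 0.36.

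Other genes of the receptor and its assembly gave the context. Of 13 listed genes, 10 were detected. Trac, the constant gene of the alpha chain that pairs with beta, stood at 2484, 2222 and 2719 TPM, and summed Trbc was 1.48 ± 0.14 times its level. The CD3 chains, which carry the signal of the receptor, stood at 761 ± 29 TPM for Cd3e, 636 ± 43 for Cd3g, 429 ± 21 for Cd3d and 328 ± 10 for Cd247. Rag1 and Rag2, the recombinase that joins the segments, had 3 and 1 counts in all, and Ptcra, the surrogate alpha chain of immature thymocytes, had 2; these 3 were not detected. Dntt, which adds bases at the joints, stood at 6.81, 8.26 and 8.43 TPM.

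The locus also holds genes with no role in the receptor, among them the trypsinogens. Of 14 protein-coding genes between the Trb members, 0 were detected, and they had 14 counts in all. The most of these fell on Try5, a trypsinogen, with 4, 0 and 2 counts.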

How the data were processed

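PolyA RNA of 1 group of 3 technical libraries was analysed; each library is named by its technical replicate number. Text deposited with the files names mm10 as assembly, with GENCODE M21 as annotation of most tables and M4 of another. Which aligner and counting tool made them, and whether strand was used, is not given in the sources used here. The authors deposited expected counts and TPM per gene, isoform percent per transcript, and whole-number counts on M4. V, D, J and C segments are separate entries in these tables, so a read over a joint belongs to no single entry.

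Totals of expected counts were 14837442, 18207118 and 17505621. Entries that name no gene held 0.247%, 0.200% and 0.325% of them and entered neither library sizes nor tests. Of the 53 members, 38 matched the M4 table by identifier; Trbv4 and the pseudogenes did not. Detection required a TPM of at least 1 in every library, and a count of 0 allows up to 3 counts; such limits cover counting error only. Log2 ratios used a pseudocount of 0.1 TPM.

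Expected counts were rounded, scaled by TMM (edgeR 4.0.16, R 4.3.3) and compared between libraries by a chi-square test (scipy 1.17.1, adjusted by Benjamini-Hochberg) wherever the mean reached 10 counts. The test was checked only on counts simulated under its own model of counting error. Further spread between real libraries was not simulated. DESeq2 (1.42.0) gave alternative size factors. Positions and sequences are those of GENCODE M21 transcripts on GRCm38. Values in full are given for the Trbc genes, Trbj segments with a count, the 10 highest Trbv genes, the 3 on either side of 1 TPM, the detected pseudogene, Trbv31 and members that differed between libraries. Trbj1-7, Trbj2-7, both Trbd, Trbv12-1 and Trbv26 were added after their values were seen, as was the comparison of older counts with other genes of the same count range. The members and lists were chosen with earlier results of these data known.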

Additional observations from a re-analysis of the deposited data

How the results depend on the processing

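Of 59 recomputed values, 1 changed direction, and 12 moved by more than the SD between libraries or, for numbers of genes, by over 1.5 times. The share of all TPM held by the locus (0.696%) was 0.642% on posterior mean TPM, 0.548% without the short segments and 0.178% as a share of expected counts, and 0.665% to 0.712% with a library left out. The log2 ratio of Trbv to Trbc (-0.97) was -1.91 on expected counts without length correction and reversed to 1.92 on the M4 counts; leaving out a library gave -0.99 to -0.95. The log2 ratio of Trbc2 to Trbc1 (0.99) was 0.92 on expected counts and 0.20 on the M4 counts. The share of the 5 highest Trbv genes (43.3%), ranked anew in each setting, was 44.1% on expected counts and 40.9% on the M4 counts. In both of these Trbv19 took the place of Trbv13-3, and the M4 total lacks Trbv4 and the pseudogenes. That of the pseudogenes (1.13%) was 1.41% on posterior mean TPM and 0.976% on expected counts. Trbd and Trbj segments with a count numbered 6, and 15 on the M4 counts. All genes that differed between libraries numbered 5240, and 1901 to 4874 with a library left out, lowest without library 2. The cause of these shifts was not tested, apart from length where a setting drops it.

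The number of members that differed was 3, and 2 to 3 under the alternatives: Trbv12-2 was not called with library totals or with no filter on counts, and Trbv2 was called with library totals and without library 1. Depth limits Trbv21, Trbv30 and the Trbj segments, with 67 expected counts or fewer over the 3 libraries. The M4 table gave no value for pseudogenes. The search for recombination signals was not run, since no genome sequence was used here. No paired analysis was possible because there is 1 group.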
